A study of Homo sapiens with 6 samples.

Results

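Cytosolic ribosomal protein genes were taken from the array table by symbol, as the rows named RPL or RPS with a number, RPLP0 to RPLP2 and RPSA. There were 87 such genes among the 31410 rows, 33 of the small subunit and 54 of the large subunit, after 2 Y-linked rows had been set aside. Of these, 84 matched a current protein coding symbol in RefSeq, and RPL13L, RPL14L and RPS26L are older names of rows that RefSeq lists as pseudogenes of RPL13, RPL14 and RPS26. The symbol rule used no measured value. Near-identical processed copies of ribosomal protein genes are common in the human genome, and which copies each array row reads was not tested.

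RNA was measured on 6 Illumina HT-12 arrays from cultures of human embryonic stem cells that had been differentiated to stage 6, the last stage of a pancreatic protocol, at which some of the cells express insulin. The 3 processed samples had been fixed with paraformaldehyde, permeabilized, stained with antibodies and passed through a cell sorter that collected all cells, and the 3 live samples were fresh, unfixed and unsorted cells. Processed RNA was isolated with a modified extraction for fixed cells and live RNA with a column kit, so fixation, staining, sorting and extraction cannot be told apart. The line HUES8 supplied differentiation 3, and the line H1 supplied differentiations 2 and 1. Both are established embryonic stem cell lines, all cultures followed the same stepwise protocol, and HUES8 was represented by a single culture. Each differentiation was divided into a processed and a live sample, here called a pair, and the spread between pairs contains the spread between cultures. In whole cultures such as these, fewer cells of a type and less RNA per cell cannot be told apart.

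The cytosolic ribosome makes all proteins encoded in the nucleus. Its small subunit reads the message and its large subunit joins the amino acids, and their proteins are needed in fixed proportion. In mammals the messages of ribosomal proteins typically begin with a cytosine followed by a run of pyrimidines, the 5′ terminal oligopyrimidine tract, through which the mTOR pathway controls how strongly they are translated.

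The sequences around the annotated transcription start show this shared feature, and the members whose annotated start does not have it. The RefSeq promoter table (GRCh38.p14) held 67 of the 87 members. A cytosine at the annotated start followed by at least 4 pyrimidines (C or T), read on the strand of the gene, was found in 47 of the 67 (70.1%), in 18 of 25 small subunit genes (72%) and in 29 of 42 large subunit genes (69%), against 5.14% of 27305 genes of any kind and 6.24% of 15843 protein coding genes. A gene was counted when any of its annotated starts had the run. By start, 47 of the members' 83 entries had it (56.6%), against 4.07% of 35116 entries, and the windows of RPL13 and RPS27A show 1 of 3 listed starts each. The windows printed here hold 15 bases before the start and the first 15 transcribed bases, with the run from the starting cytosine in capitals. They are shown for some of the genes with large or opposite differences between samples and for a pair of paralogs. A window without capitals had no such run at this annotated start. A run of pyrimidines that begins after the first transcribed base, as in the windows of RPS28 and RPS26, was not counted.
RPS24, chr10:78033848-78033877, plus strand: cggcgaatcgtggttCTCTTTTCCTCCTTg
RPS27A, chr2:55232673-55232702, plus strand: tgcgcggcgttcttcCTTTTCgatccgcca
RPL7A, chr9:133348203-133348232, plus strand: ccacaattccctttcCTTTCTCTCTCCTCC
RPL14, chr3:40457324-40457353, plus strand: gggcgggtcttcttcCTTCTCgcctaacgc
RPL7L1, chr6:42879601-42879630, plus strand: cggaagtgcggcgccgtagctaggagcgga
RPL13, chr16:89560667-89560696, plus strand: ttgcggggccgcttcCTTTCCgctcggctg
RPS23, chr5:82278340-82278369, minus strand: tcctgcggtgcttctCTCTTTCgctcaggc
RPS26, chr12:56041903-56041932, plus strand: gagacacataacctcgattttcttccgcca
RPS28, chr19:8321481-8321510, plus strand: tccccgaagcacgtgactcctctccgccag
RPS27, chr1:153990747-153990776, plus strand: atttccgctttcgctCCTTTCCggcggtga
RPS27L, chr15:63157463-63157492, minus strand: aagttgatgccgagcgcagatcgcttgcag

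Deposited intensities were background subtracted and normalized between arrays by the authors, and differences are given on the log2(intensity + 20) scale. Tests were run on the 12653 genes that reached an intensity of 40 on 3 or more arrays. All 33 small subunit members and 49 large subunit members passed. The brightest decile of the tested genes held 69 of the 82 tested members. Array signal depends on the probe, so this and the signal ranks used later order probe signals, not RNA levels of genes.

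RPL10, RPL10L, RPL22L1, RPL36A and RPL3L did not pass. RPL10, a core protein of the large subunit, read only 1.2 to 14.3, and RPL36A read 17.8 to 40.5. RPL10L, RPL3L and RPL22L1, paralogs of RPL10, RPL3 and RPL22, had highest intensities of 29.0, 18.2 and 20.5. Detection p-values were not used here, and a low signal of one probe does not show that the message was absent.

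The arrays themselves differed in how bright their bright genes were. The highest intensity on the processed array of differentiation 2 was 14230, against 18138 to 23761 on the other 5 arrays, and the share of summed intensity held by the 87 members was lowest there, at 5.85%. That share was 7.15% and 7.42% in the processed and live samples of HUES8, against 5.85% to 6.71% on the 4 H1 arrays. The 8 endocrine markers of stage 6 on the list summed to 18945 to 25025 in processed samples and 24443 to 26980 in live samples. CHGA had the highest signal of the 8 on every array, 7128 to 16612.5. PCSK1 read only 22.9 and 37.9 in the processed and live samples of differentiation 1.

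The first question was whether fixation, staining and sorting altered the representation of these messages. The median of the 82 members, processed minus live, was -0.18, and it was -0.11 in pair 1, -0.44 in pair 2 and 0.00027 in pair 3, the HUES8 pair. The same medians over all tested genes were -0.03, and -0.00011, -0.07 and -0.01 in the 3 pairs. Members were thus lower in the processed sample of pair 2 and, by less, of pair 1, and were centred on 0 in pair 3. The SD of the 3 pair medians was 0.23, larger than their mean size, and without pair 2 the members' median was -0.054.

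**Figure D1:**
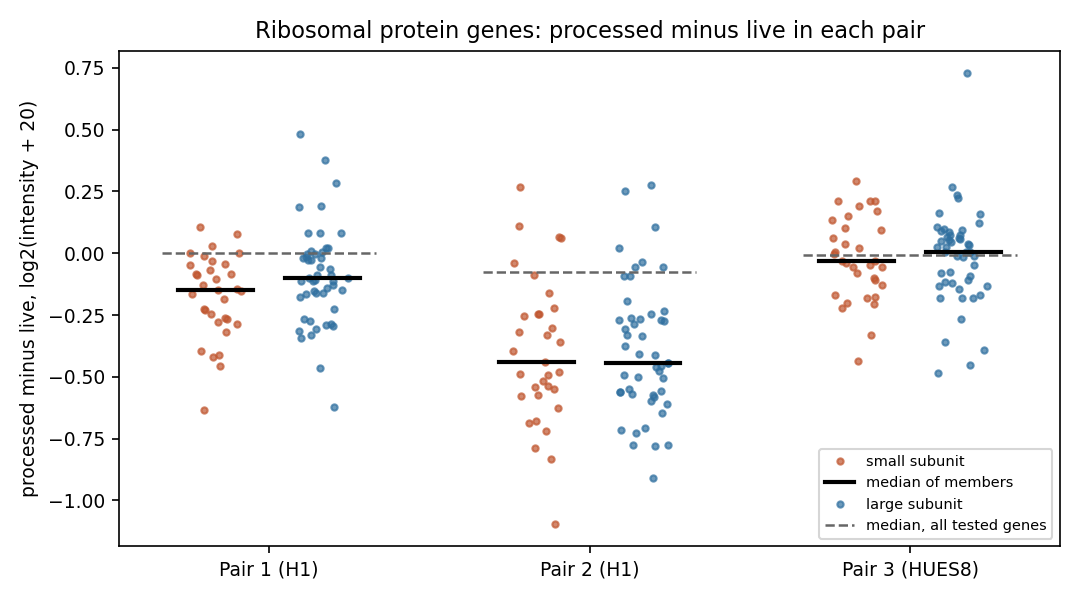
Processed minus live on the log2(intensity + 20) scale for each of the 82 tested ribosomal protein genes (points; small subunit left, large subunit right in each pair). Black bars are medians of the members and dashed lines medians of all 12653 tested genes; members lie lowest in pair 2, with medians of -0.44 for both subunits, and around 0 in pair 3.

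By count, 65 of 82 members were lower in the processed sample of pair 1 (50% of all tested genes), 74 in pair 2 (59.1% of all) and 41 in pair 3 (50.9% of all). The mean of the 3 pairs was below 0 for 75 members, 91.5%, against 56.1% of all tested genes. Processed was lower in 3 of 3 pairs for 30 members (36.6%; 19.8% of all) and higher in 3 of 3 for 1 member, RPL14 (1.22%; 13.7% of all). Of the 1197 other genes of the brightest decile, 904 had a mean below 0. In 3 of 3 pairs 435 of them were lower and 100 higher. The share lower in 3 of 3 pairs was thus about the same in the members and in these other bright genes. The 3 processed arrays lay below the 3 live arrays for 7 members, RPS24, RPS27A, RPL6, RPL8, RPL11, RPL23A and RPL29 (8.54%; 2.96% of all).

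No member passed the test of processed against live (limma, adjusted p under 0.05), nor did any other gene (0% of all tested), and the smallest adjusted p of a member was 0.421 (limma). At an unadjusted p under 0.05 there were 8 members lower (9.76%; 4.76% of all) and 0 higher (4.89% of all). The methods' t-test also called 0 members after adjustment and gave 2 members at an unadjusted p under 0.05 (2.44%; 2.53% of all). With 3 pairs, an exact sign-flip test of a single gene cannot go below p = 0.25.

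The brightest genes of the array that are not ribosomal moved in the same order. The median of the 1197 other genes of the brightest decile was -0.06 in pair 1, -0.29 in pair 2 and -0.03 in pair 3. Across the 82 members, the difference in pair 2 and the mean log2 signal had a Spearman correlation of -0.25, and across all 12653 tested genes it was -0.23. These are descriptions across genes that share the same arrays. The share of the general dimming of bright genes in the members' values was not tested beyond rescaling the arrays.

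**Figure D2:**
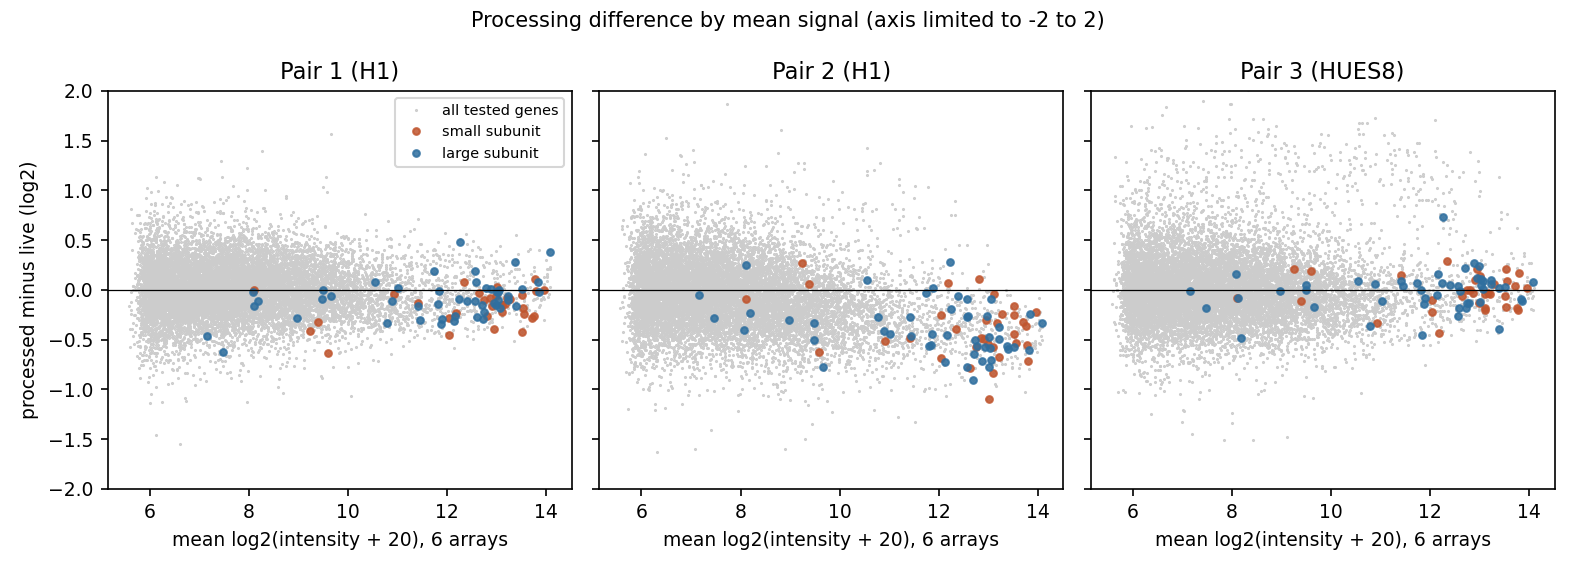
Processed minus live (log2) against mean log2(intensity + 20) over 6 arrays in each pair, for all tested genes (grey) and the small and large subunit members (colours); the vertical axis is limited to -2 to 2. Most members lie at the bright end, where the other bright genes also lie below 0 in pair 2, with a median of -0.29.

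Small subunit genes showed a median of -0.20 and large subunit genes one of -0.18. Small minus large was -0.05 in pair 1, 0.0028 in pair 2 and -0.04 in pair 3, so the subunits differed by less than the spread of the pairs. Within the subunits, 32 of 33 small and 43 of 49 large subunit genes had a mean below 0 (56.1% of all tested genes). In 3 of 3 pairs 14 small and 16 large subunit genes were lower (19.8% of all).

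Of the small subunit proteins, RPS24 had the most negative mean. RPS24 read 3164, 3443 and 4231 in the processed samples of pairs 1 to 3, against 4354, 5562 and 4931 in the live samples. Every processed array lay below every live array, and the mean log2 difference was -0.46 ± 0.23 (SD, n = 3 pairs; 95% interval -0.78 to -0.13; limma, adjusted p = 0.421).

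RPS27A encodes a fusion of ubiquitin with a small subunit protein. It read 7989, 5993 and 9248 in processed samples, against 9339, 10704 and 10484 in live samples. These did not overlap either, by -0.41 ± 0.37 (limma, adjusted p = 0.495), although pair 2 alone gave -0.83 and the other pairs -0.22 and -0.18.

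RPS28, also of the small subunit, held the lowest value of any member in a single pair. In pair 2 it read 3985 in the processed and 8531 in the live sample, a difference of -1.09. In pairs 1 and 3 it read 10074 and 10021 in processed samples, against 9859 and 9120 in live samples, so the groups overlapped. RPS21 read 569 and 459 in the processed samples of pairs 1 and 2, against 894 and 721 live, and 1097 against 959 in pair 3, so the HUES8 pair went the other way.

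RPS26 ended near 0 by opposite differences, -0.41, 0.27 and 0.21 in the 3 pairs. RPSA, which also serves as a laminin receptor, gave -0.01 ± 0.35. RPS6, the substrate of the S6 kinases downstream of mTOR, gave -0.25 ± 0.26 and was lower in 3 of 3 pairs.

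Among large subunit genes the most negative means were those of RPL11 (-0.38 ± 0.22), RPL30 (-0.37 ± 0.24), RPL7A (-0.36 ± 0.34) and RPL29 (-0.36 ± 0.23; SD, n = 3 pairs each). RPL11 and RPL5 bind the 5S ribosomal RNA, and the free particle inhibits MDM2, the ubiquitin ligase of p53. RPL11 read 9984, 8352 and 9946 in processed samples, against 11173, 12649 and 13049 in live samples, with no overlap. RPL5 was lower in 3 of 3 pairs at -0.29 ± 0.19, but its groups overlapped, with 4935 to 8230 in processed samples and 6844 to 9012 in live samples.

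RPL22 had the most even negative difference among the 8 members at an unadjusted p under 0.05. It read 1390, 1364 and 2004 in processed samples, against 1754, 1649 and 2577 in live samples. The pair differences were -0.33, -0.27 and -0.36, a mean of -0.32 ± 0.05 (SD, n = 3 pairs; limma, adjusted p = 0.501). The arrays overlapped, since the processed HUES8 sample lay above both live H1 samples.

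RPL14 was the counterpart in the other direction. It read 1589, 1315 and 1704 in processed samples, against 1499, 1222 and 1602 in live samples, with pair differences of 0.08, 0.10 and 0.09. The mean was 0.09 ± 0.01, and the 95% interval of the fit, which borrows spread from all genes, ran from -0.20 to 0.38 (limma, adjusted p = 0.825).

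RPL7L1, a paralog of RPL7 whose annotated start has no pyrimidine run, had the highest mean of all members. It read 6392, 3544 and 7279 in processed samples, against 4574, 4053 and 4386 in live samples. The pairs gave 0.48, -0.19 and 0.73, so pair 2 went against the others. The mean of 0.34 ± 0.48 did not pass (limma, adjusted p = 0.566), and without pair 2 RPL7L1 was the 1 member called. In that fit of 2 pairs 688 genes were called, 5.44% of those tested.

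The stalk of the large subunit, which recruits the elongation factors, is built of RPLP0, RPLP1 and RPLP2. RPLP0 was lower in 3 of 3 pairs (-0.31 ± 0.15), whereas RPLP1 gave -0.02, -0.58 and 0.10 and RPLP2 gave 0.38, -0.33 and 0.07. RPLP2 read 23761, 11739 and 19472 in processed samples, against 18282, 14796 and 18490 in live samples, so its groups overlapped widely. RPL15 gave 0.08 ± 0.11 and had the smallest SD over the 6 arrays of any member, 0.09 on the log2 scale, and RPL14L gave 0.08 ± 0.18.

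Paralogs were set beside their partners, each by its own difference. RPS27L, a paralog of RPS27 and a known target of p53, gave -0.12 ± 0.19 and RPS27 gave -0.23 ± 0.31. RPL26L1 gave 0.0043 ± 0.22 and RPL26 gave -0.12 ± 0.18, and RPL39L, a paralog best known from testis, gave -0.09 ± 0.29 and RPL39 gave -0.27 ± 0.44. RPL7 and RPL3, the partners of RPL7L1 and RPL3L, gave -0.18 ± 0.24 and -0.09 ± 0.43. No paralog or partner passed the test.

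**Figure D3:**
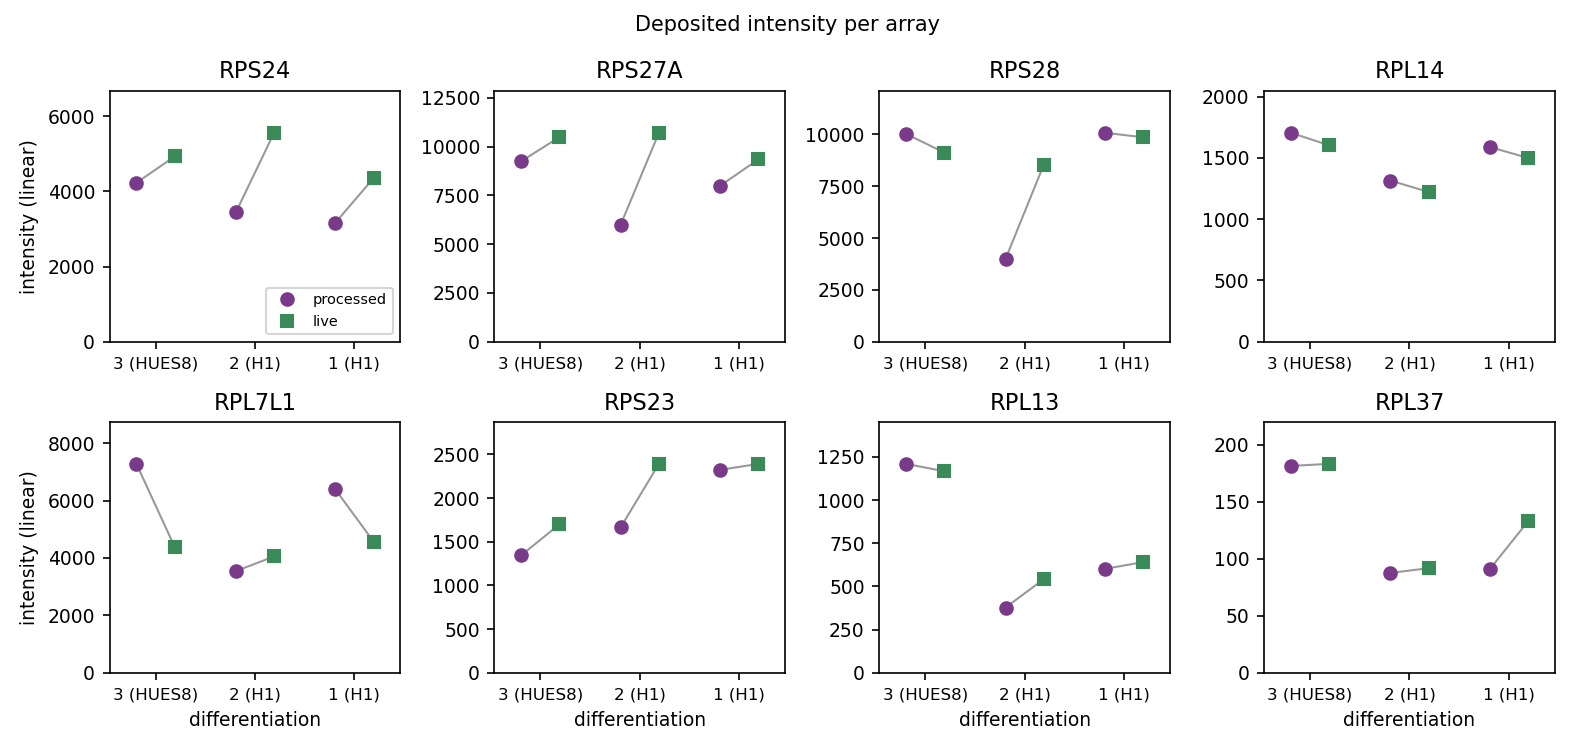
Deposited intensity (linear, axes from 0) of 8 members in the processed (circles) and live (squares) sample of each differentiation, joined within a pair. RPS24 and RPS27A are lower in every processed sample, RPL14 is higher in every one by a small step, RPS28 differs by 3985 against 8531 in differentiation 2, and RPL13 and RPL37 are highest in both HUES8 samples.

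The second question was how the members differed between the HUES8 culture and the H1 cultures. Processed and live values were averaged per differentiation, which gave 1 value for HUES8 and 2 for H1. The median of the 82 members, HUES8 minus H1, was 0.29, against 0.02 over all tested genes and 0.09 over the 1197 other genes of the brightest decile. The difference was above 0 for 77 members, 93.9%, against 51.8% of all tested genes. HUES8 was higher than H1 differentiation 2 in 79 members (96.3%; 52.6% of all) with a median of 0.38, and higher than H1 differentiation 1 in 63 (76.8%; 48.7% of all) with a median of 0.19.

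The H1 cultures also differed from each other. The members' median was -0.22 for H1 differentiation 2 minus differentiation 1, and it was -0.04 over all tested genes and -0.21 over the other genes of the brightest decile. Differentiation 2 was below differentiation 1 in 68 of 82 members (82.9%; 54% of all). Both arrays of differentiation 2 lay below both of differentiation 1 for 29 members (35.4%; 32.5% of all) and above them for 4, RPL10A, RPL21, RPL26 and RPL26L1 (4.88%; 26.9% of all). Markers of other cells moved between these cultures too. The 6 mesenchyme markers summed to 2931 and 3007 in the processed and live samples of differentiation 2, against 958 and 973 in differentiation 1, with 4 of 5 tested markers higher and a median difference of 1.72, and the 12 hepatic and gut markers had a median of -0.49 with 9 lower. Their part in the members' difference was not tested.

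HUES8 lay above both H1 cultures in 62 members (75.6%; 35.5% of all). Both HUES8 arrays lay above all 4 H1 arrays for 32 members (39%; 18.8% of all) and below all 4 for 0 members (18.5% of all). No member was called higher (0.49% of all tested genes) or lower (1.24% of all; limma, adjusted p under 0.05), and the smallest adjusted p was 0.151, of RPL13. At an unadjusted p under 0.05 there were 4 members higher (4.88%; 4.52% of all), namely RPL13, RPL37, RPS26 and RPS26L, and 0 lower (6.1% of all). The fit had 1 residual degree of freedom, and its intervals were wide, with a 95% interval of -0.60 to 0.86 for RPL11, for example.

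The shift was present in both kinds of sample, with different sizes. In processed samples alone the members' median was 0.43 and 78 were higher in HUES8 (all tested genes: median 0.04, 6721 of 12653 higher). In live samples alone the members' median was 0.17 and 65 were higher (all tested genes: median -0.01, 6176 of 12653 higher). The other genes of the brightest decile had medians of 0.20 in processed and -0.05 in live samples. Leaving out the dim processed array of differentiation 2, an alternative chosen after seeing the data, gave a median of 0.19 with 66 members higher. The median over all tested genes was -0.00045 in that setting.

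**Figure D4:**
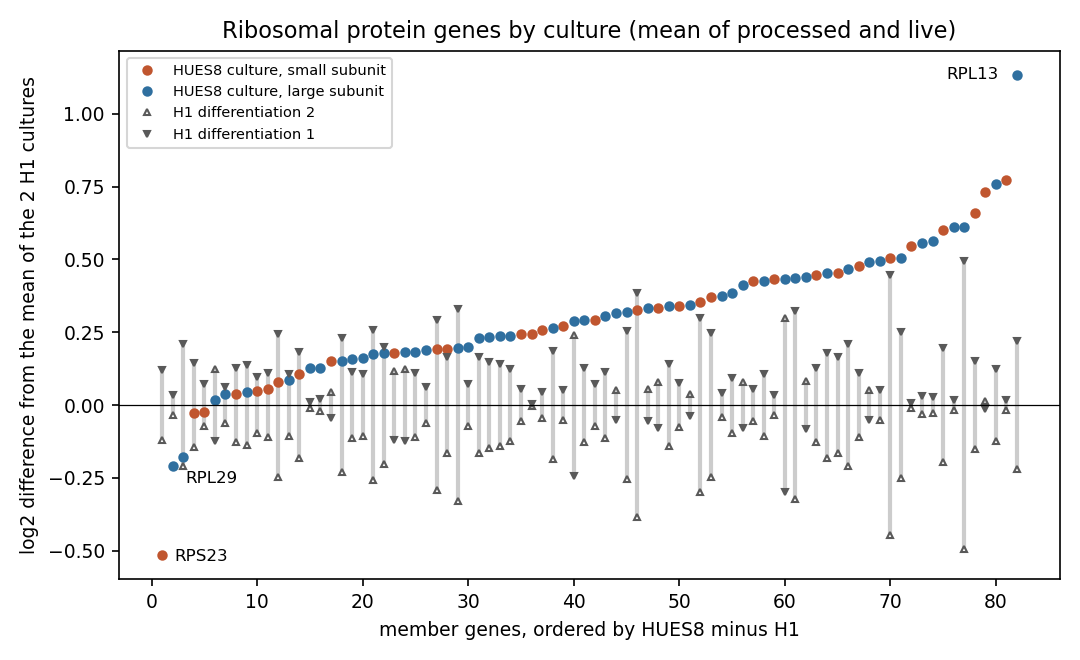
Each of the 82 tested members in the HUES8 culture (coloured points, small and large subunit) and in H1 differentiations 2 and 1 (triangles joined by grey bars), as the log2 difference from the mean of the H1 cultures, ordered by HUES8 minus H1. HUES8 lies above 0 for 77 members, from -0.51 for RPS23 to 1.13 for RPL13, and the spread between the H1 cultures is of similar size for many genes.

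RPL13, of the large subunit, stood furthest above. It read 1210 and 1167 in the processed and live samples of HUES8, against 378 and 542 in differentiation 2 and 602 and 641 in differentiation 1 of H1. Both HUES8 arrays lay above every H1 array, and the mean difference was 1.13, a 2.19-fold level on the offset scale (95% interval 0.38 to 1.89; limma, adjusted p = 0.151). RPL13L, named after the same gene, read 935 and 933 in HUES8, against 376 and 477 in differentiation 2 and 858 and 860 in differentiation 1. Its difference of 0.61 came with the widest gap of any member between the H1 cultures, -0.99.

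RPS26 and its pseudogene row RPS26L were both higher in HUES8, although their processing differences in pair 2 had opposite signs, 0.27 and -0.49. RPS26 read 893 and 769 in the processed and live samples of HUES8, against 546 and 450 in differentiation 2 and 419 and 564 in differentiation 1, a difference of 0.73 (limma, adjusted p = 0.469). RPS26L read 4095 and 3683 in HUES8, against 1885 and 2652 in differentiation 2 and 2193 and 2399 in differentiation 1, a difference of 0.77. Neither overlapped between the lines, and whether the rows read each other's message was not tested.

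RPL37 read 181 and 183 in HUES8, against 88 and 92 in differentiation 2 and 91 and 133 in differentiation 1 (difference 0.76). RPS21 stood at 0.66 with 1097 and 959 in HUES8, against 459 to 894 on the H1 arrays. RPL22 and RPL7 were 0.56 higher each, and RPL5 0.50. For all of these, both HUES8 arrays exceeded every H1 array.

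The exceptions were few. RPS23, a protein of the decoding centre of the small subunit, read 1345 and 1699 in the processed and live samples of HUES8, against 1665 and 2391 in differentiation 2 and 2322 and 2391 in differentiation 1. The difference was -0.51, with 1 HUES8 array above the lowest H1 array (limma, adjusted p = 0.715). RPL29 (-0.21), RPL13A (-0.18), RPS10 (-0.03) and RPS29 (-0.02) were the other members below 0. RPL13A lay between the H1 cultures, -0.39 from differentiation 1 and 0.03 from differentiation 2.

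The members with the widest differences between the H1 cultures included genes with abundant signal. RPS2 read 7250 and 8103 in the processed and live samples of differentiation 2, against 12316 and 16478 in differentiation 1, a difference of -0.89, and HUES8 read 13994 and 15716. RPS28 differed by -0.77. RPL26 (0.60), RPL21 (0.48) and RPL10A (0.25) ran the other way, and RPL26 read 2755 and 3324 in differentiation 2, against 1880 and 2110 in differentiation 1.

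For HUES8 minus H1, 30 of 33 small and 47 of 49 large subunit genes lay above 0 (51.8% of all tested genes). The medians of the small and large subunit genes were again the same, 0.29 each. The sign of their difference, 0.00034, turned with the scaling of the arrays. Across the 82 members, HUES8 minus H1 and mean signal had a Spearman correlation of -0.33, against 0.04 across all tested genes, a description over genes measured on the same 6 arrays. The 13 members outside the brightest decile had a median of 0.47, and the 69 inside it one of 0.29.

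The processing difference itself was compared between lines on the within-pair differences. It was higher in the HUES8 pair than in the H1 pairs by a median of 0.25 over the members, 0.17 over the other genes of the brightest decile and 0.04 over all tested genes. The members' medians were -0.11 and -0.44 in the H1 pairs and 0.00027 in the HUES8 pair, so the H1 pairs also differed from each other. After quantile normalization the medians were -0.09 and -0.09 in the H1 pairs and -0.08 in the HUES8 pair. No member was called (0.261% of all; limma, adjusted p under 0.05; smallest adjusted p of a member 0.966), and 2 had an unadjusted p under 0.05, RPS21 and RPL35 (2.44%; 4.43% of all). The difference was 0.82 for RPS21 (95% interval 0.08 to 1.56), 0.76 for RPL35 and 0.67 for RPS28 at the high end, and -0.35 for RPS4X, -0.31 for RPL28 and -0.17 for RPL8 at the low end.

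Rescaling the arrays changed the sizes and, for pair 2, most of the shift. After quantile normalization, which gives every array the same distribution of values, the members' medians were -0.09, -0.09 and -0.08 in the 3 pairs, the median of the members' mean differences was -0.07, and 27 members were lower in 3 of 3 pairs against 17.6% of all tested genes. Cyclic loess, which removes signal-dependent differences between arrays, gave -0.08, -0.11 and -0.07. With it 22 of the 82 members were lower in 3 of 3 pairs, against 17.6% of all tested genes. Scaling to a common median left -0.12, -0.42 and -0.02. The pair 2 median thus came close to those of the other pairs after quantile normalization, while that of pair 3 moved below 0.

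Individual members kept their place to differing degrees. RPS24 stood at -0.42, -0.40 and -0.37 after quantile normalization, more even than as deposited, and RPS27A at -0.20, -0.39 and -0.21. RPS28 in pair 2 remained the lowest of these at -0.73. RPL7L1 gave 0.52, 0.13 and 0.53, above 0 in all 3 pairs, and RPL14 gave 0.12, 0.31 and 0.08.

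For HUES8 minus H1, the members' median was 0.17 after quantile normalization and 0.19 after cyclic loess, with 62 and 67 of 82 above 0 (75.6% and 81.7%, against 52.4% and 50.9% of all tested genes). The difference between the H1 cultures turned to 0.06 and 0.07. Both HUES8 arrays lay above all H1 arrays for 26 and 29 members, 31.7% and 35.4%, against 19.2% and 18.7% of all tested genes, and below for 4 and 4, against 18.5% and 19.2% of all. RPL13 (1.14), RPL37 (0.77) and RPS26 (0.74) kept their differences after quantile normalization, RPS23 stood at -0.54, and no member was called under any of these scalings.

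**Figure D5:**
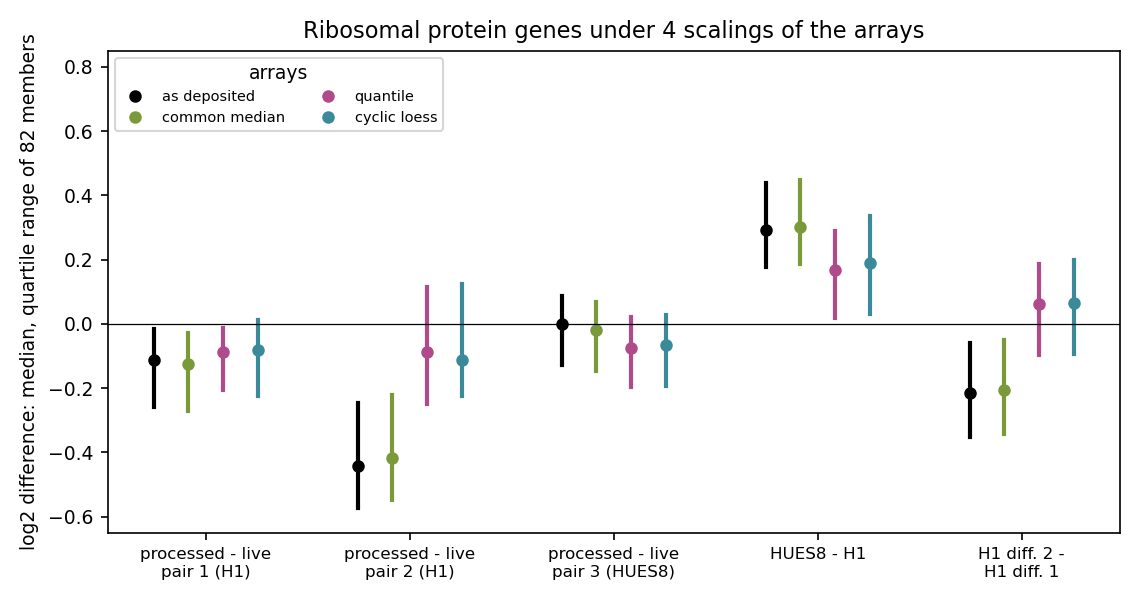
Median (point) and quartile range (line) of the log2 differences of the 82 members as deposited, with arrays scaled to a common median, after quantile normalization and after cyclic loess. The pair 2 median is -0.44 as deposited and -0.09 after quantile normalization, HUES8 minus H1 is 0.29 and 0.17, and H1 differentiation 2 minus 1 is -0.22 and 0.06.

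The spread of the members over the 6 arrays shrank more than that of other genes. The median SD of a member was 0.29 on the log2 scale as deposited and 0.20 after quantile normalization. The other genes of the brightest decile had 0.30 and 0.28, and all tested genes 0.29 and 0.29. RPL13 had the largest SD of the members in both, 0.64 and 0.63.

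Other parts of the translation machinery were described by the same counts. Over all tested genes, 19.8% were lower in 3 of 3 pairs and 18.8% had both HUES8 arrays above all H1 arrays. The members had 36.6% and 39%. Of 35 tested initiation and elongation factors there were 14 and 13. Their medians were -0.11 for processed minus live and 0.24 for HUES8 minus H1. EIF3G (-0.42) and EIF3F (-0.36), subunits of the scaffold initiation factor, were lowest in processed samples. EIF2S2, the β subunit of the factor that delivers the initiator tRNA, read 151 and 172 in the processed and live samples of HUES8, against 49.3 to 57.5 on the H1 arrays (difference 1.28; limma, adjusted p = 0.0777).

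A further list held 12 tested messages of other proteins and RNAs known to begin with a pyrimidine tract. Among them was GNB2L1 (RACK1), which binds the small subunit. Of the 12, 6 were lower in 3 of 3 pairs (19.8% of all) and 5 had both HUES8 arrays above (18.8% of all). Their medians were -0.20 and 0.33. TPT1 (-0.38) and NACA (-0.33) were lowest in processed samples, and SNHG5 (1.03) was highest in HUES8. The 75 mitochondrial ribosomal proteins, which are encoded in the nucleus but serve a separate ribosome, had 31 and 17 such genes (19.8% and 18.8% of all). Their medians were -0.14 and 0.05. The share lower in 3 of 3 pairs was above the members' 36.6%, and the share above in HUES8 was below their 39%. The 47 ribosome assembly factors had 14 and 16 (19.8% and 18.8% of all), with medians of -0.08 and 0.21.

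The 9 tested rows named as ribosomal protein pseudogenes had 4 lower in 3 of 3 pairs and 5 with both HUES8 arrays above, and RPS26P10 (1.30) and RPS26P11 (0.80) stood highest in HUES8. No gene of any of these 5 lists was called in a comparison, so that they, like the members, are described by counts read against 19.8% and 18.8% of all tested genes.

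The makeup of the HUES8 culture differed from that of the H1 cultures as well. With a single HUES8 culture, line and culture cannot be told apart. Of 12 markers of hepatic and gut endoderm, 9 were called lower in HUES8 (limma, adjusted p under 0.05), and their sum was 5232 to 6523 in HUES8, against 16130 to 24437 in H1. AFP, the fetal liver marker, read 33.6 and 22.9 in HUES8, against 6123 to 7813 in H1. The 6 neural markers summed to 2156 to 2914 in HUES8, against 1000.2 to 1312 in H1, with 1 called higher. By sign 4 of the neural markers were higher and 2 lower in HUES8. The 8 endocrine markers summed to 22530 to 24558 in HUES8, within the range of 18945 to 26980 in H1. Of these 8, PCSK1 was called higher, and by sign 4 were higher and 4 lower in HUES8. The 10 proliferation markers summed to 5596 to 6386 in HUES8, against 5286 to 6143 in H1, with 0 called. The part of these other cell types in the members' difference between lines was not tested.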

How the data were processed

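The deposited intensities, linear array signals with 1 row per gene symbol, had been background subtracted and normalized between arrays by a rank-invariant method by the authors in GenomeStudio. Another deposited table was not used here, since its 12 columns (6 signal and 6 detection p-value columns) match no sample label. Groups, lines and differentiation numbers came from the sample labels. Values below 0 (4.37%) were set to 0, the offset of 20 given in the methods was added, and log2 was taken, which understates differences of dim genes. Tests used limma 3.58.1 in R 4.3.3 (lmFit, eBayes) with Benjamini-Hochberg adjustment over all 12653 genes tested (40.3%).

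Processed and live samples were compared with the differentiation as a block, since each pair came from the same culture. Deviations from group means correlated at 0.79, 0.62 and 0.81 within pairs. HUES8 and H1 were compared on means of processed and live values, and the single HUES8 culture was assumed to vary like the H1 cultures. The pipeline was tested on simulated data for the recovery of planted changes. The simulation gave every gene the same spread, so it does not show how often true differences were missed in these arrays. The members, gene lists and rules for named genes (the extremes of each comparison, paralogs, stalk, 5S particle, RPSA and RPS6) were chosen with earlier results of these data known. The other members of the 7 that did not overlap, and the members with both arrays of differentiation 2 above those of 1, were named after their values were seen. A list of ribosomal proteins outside the symbol rule is not reported here. The marker lists for pluripotent cells and mesenchyme had 2 and 0 genes called lower in HUES8. Of 5 tested pluripotent markers 3 were lower and 2 higher, and the list summed to 4863.5 to 5710.5 in HUES8, against 3210 to 4516 in H1. All 5 tested mesenchyme markers were lower, and the list summed to 706 to 798 in HUES8, against 958 to 3007 in H1. Alternatives were other array scalings, offset 50, no filter or a filter on all 6 arrays, each replicate left out, no block, the methods' t-test, and single sample kinds. Depth is not defined for arrays, and their number limits the precision.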

Additional observations from a re-analysis of the deposited data

How the results depend on the processing

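No member was called for processed against live under any alternative except without replicate 2 (0 to 1 members over the 3 fits), including the fit with no replicate block, in which the paired samples were treated as separate (0 members called). None was called for HUES8 against H1 or for the processing difference under the alternatives run. Over all tested genes, processed against live gave 105, 688 and 12 calls without replicates 1, 2 and 3, against 0 with all pairs, HUES8 against H1 gave 219 calls as deposited, 0 with no filter, 80 with the filter on all 6 arrays, 112 after cyclic loess and 142 with offset 50, and at most 249, with a common median. The processing difference gave 33 calls, 0 with no filter, 5 with a common median and 9 with offset 50. The members' median for processed minus live kept its sign, from -0.28 to -0.054 with 1 replicate left out, and so did that for HUES8 minus H1, from 0.19 to 0.38 with 1 H1 differentiation left out. Without the rows listed as pseudogenes, chosen after seeing the data, they were -0.19 and 0.29.

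The small minus large subunit median turned over. For HUES8 minus H1 it was 0.00034 as deposited, -0.021 after quantile normalization, -0.025 after cyclic loess, -0.041 in processed samples only and -0.0036 in live samples only. For processed minus live it ran from -0.044 to 0.040 with 1 replicate left out. The cause was not tested.

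Some single genes changed sign. For processed minus live, RPL3 was 0.066 and 0.038 and RPSA 0.035 and 0.10 after quantile normalization and cyclic loess. With 1 replicate left out, the range was -0.13 to 0.23 for RPLP2, -0.011 to 0.17 for RPL14L, -0.10 to 0.24 for RPS26, -0.53 to 0.083 for RPS28, -0.22 to 0.066 for RPL39L, -0.12 to 0.087 for RPL26L1, -0.27 to 0.15 for RPL3, -0.30 to 0.043 for RPLP1 and -0.16 to 0.19 for RPSA. The fit without replicate 2 gave an end of each of these ranges.

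For HUES8 minus H1, the members above 0 fell from 77 as deposited to 62 after quantile normalization. Among those that turned, RPS14 was -0.14, RPL41 -0.13, RPSA -0.050, RPL10A -0.043 and RPLP1 -0.0048. RPL11 was -0.038 there and -0.028 after cyclic loess. In processed samples only, RPS10 was 0.14, RPS29 0.090 and RPL26L1 -0.045, and in live samples only, RPS27 was -0.049, RPLP1 -0.025 and RPSA -0.12. With 1 H1 differentiation left out, the range was -0.39 to 0.031 for RPL13A, -0.17 to 0.11 for RPS10, -0.095 to 0.048 for RPS29, -0.11 to 0.14 for RPL26L1, -0.023 to 0.38 for RPLP1, -0.14 to 0.53 for RPLP2 and -0.075 to 0.29 for RPSA. With 6 arrays and 1 HUES8 culture, differences of these sizes were not resolved.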
